A study of Mus musculus with 24 samples.

Results

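The replication-independent histone variants are histones made outside S phase as well as within it, and they replace the canonical histones in chromatin. Their genes were found by symbol in the deposited expression table, which held all 9 members among its 25965 entries, each on a single entry: H2afx, H2afz, H2afv, H2afy, H2afy2, H2afj, H3f3a, H3f3b and H1f0. All 9 passed the filter on low values, a mean log2 rpm (mapped reads scaled to a common library size) of at least 0, which left 13296 genes for testing. The RNA came from a male C57/Bl6 mouse embryonic stem cell (mESC) line, expanded in 2i medium and differentiated by weaning into DME HiHi medium. A viral shRNA was given on day 2 of differentiation, puromycin selection began on day 3 and cells were collected on days 4, 5, 6 and 7. The question was how the loss of Smarcc1 or Smarca4, a core subunit and an ATPase subunit of the BAF remodelling complex, changes expression in differentiating male cells.

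The nonsilencing control (Nons) had 1 library per day, 4 in all. The Smarcc1 knockdown had 2 hairpins, numbered 6 and 7, and the Smarca4 knockdown had 2 hairpins, numbered 4 and 6, each with 1 library per day, so that each knockdown had 8 libraries. All 3 groups shared the line, the medium, the virus and the selection, and the other 4 Nons libraries of the series were not analysed here. A genotype label calls the Smarca4 libraries a Smarcc knockdown, and the titles, which name Smarca4, were followed. Library totals ran from 6829596 reads, for Smarca4 hairpin 4 on day 5, to 27472885, for Nons on day 4. With 1 Nons library per day the spread between Nons cultures was not measured, and the p-values rest on the spread between the hairpins of a gene on the same day. The labels do not say that these were separate cultures before transduction.

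Canonical core histones are produced mainly in S phase from clustered genes, whereas the variants come from genes outside those clusters and are placed in chromatin by dedicated chaperones and remodelling complexes. H2A.X is phosphorylated around DNA double-strand breaks, H2A.Z flanks the nucleosome-depleted starts of active genes, macroH2A is enriched in silent chromatin including the inactive X chromosome, and H3.3 is deposited at active genes, enhancers and telomeres. H1.0, the product of H1f0, is a linker histone that accumulates as cells differentiate and leave the cycle.

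The target of each knockdown was examined in every library before the members. Smarcc1 stood at 8.82, 8.02, 6.99 and 7.42 log2 rpm in Nons on days 4 to 7. In the Smarcc1 knockdown it was 7.35, 5.94, 5.45 and 6.16 with hairpin 6, and 7.59, 6.77, 6.25 and 6.34 with hairpin 7. All 8 of these libraries were below Nons of their day, with differences of -2.08 to -0.73 log2 units, and the mean log2 fold change was -1.33 (SE 0.21, adjusted p = 0.0011, limma). Smarca4 stood at 7.79, 7.24, 6.50 and 7.32 log2 rpm in Nons, at 5.81, 5.63, 5.64 and 5.40 with hairpin 4, and at 5.97, 5.18, 4.29 and 5.44 with hairpin 6. All 8 Smarca4 knockdown libraries were below every Nons library, with a mean log2 fold change of -1.79 (SE 0.29, adjusted p = 0.0028; -1.59, adjusted p = 0.068, without hairpin 6). The labels therefore fit the levels of their targets.

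Levels of different genes were compared as rpm per kilobase of exon. On day 4 the highest member was H2afz, with a median of 262 (249 to 301 over the 5 libraries), and H3f3b came next with 169 (166 to 178). H3f3a at 66.8 (61.4 to 79.9) and H2afx at 61.9 (58.1 to 69.1) overlapped, and below them H2afv had 43.2 (41.7 to 52.4), H2afj 23.2 (22.7 to 29.0) and H1f0 16.8 (14.0 to 19.3). Per kilobase the macroH2A genes were lowest and overlapped, H2afy at 8.47 (5.32 to 10.5) and H2afy2 at 7.72 (5.73 to 9.57). The place of H2afy depends on its merged exon length of 6.81 kb, against 1.38 to 3.5 kb for the other members. In rpm the day 4 medians were 57.6 for H2afy, 42.6 for H2afj and 34.5 for H1f0. On day 7 the order was compressed. H3f3b at 152 (114 to 205) and H2afz at 120 (96.4 to 129) then overlapped, as did H2afx at 73.6, H2afv at 69.7, H3f3a at 62.7 and H1f0 at 49.2 (38.9 to 76.2). H2afj at 19.3 (16.2 to 22.7), H2afy2 at 17.3 (14.5 to 21.8) and H2afy at 13.5 (13.2 to 17.7) formed an overlapping lowest set per kilobase. In rpm the day 7 medians were 35.1 for H2afj, 37.4 for H2afy2 and 91.8 for H2afy. From day 4 to day 7 H1f0 moved from below H2afj to above it, and H2afz lost its clear lead.

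**Figure D1:**
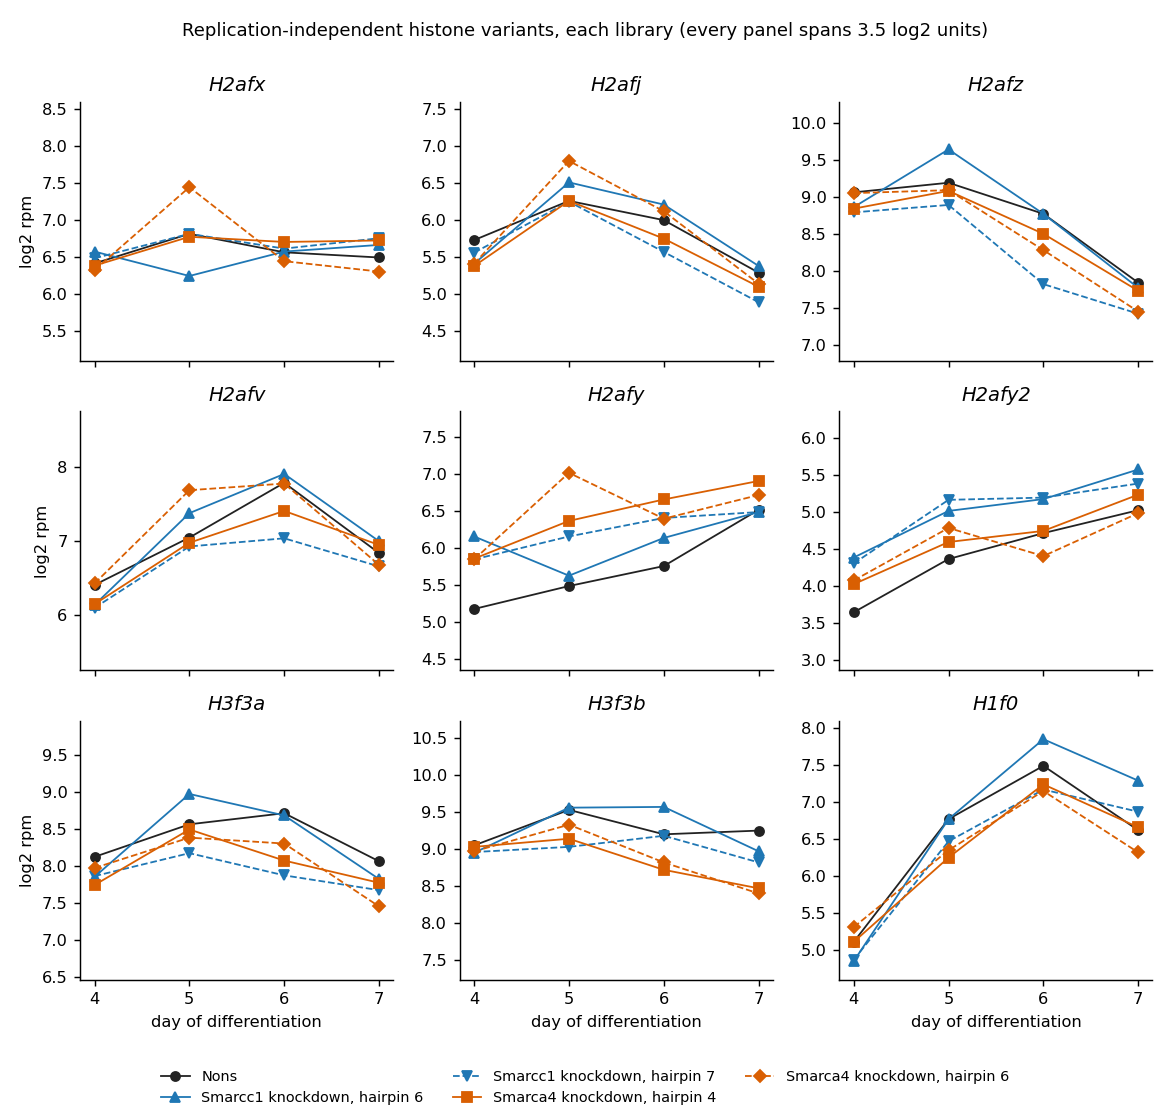
Log2 rpm of each of the 9 members (y axis, every panel spanning the same number of log2 units) against day of differentiation (x axis) in all 20 libraries, with 1 line for Nons and 1 for each hairpin and no averaging. H1f0 climbs to day 6 in all 5 series, H2afz drops to 7.42 to 7.84 on day 7, and Nons is the lowest line for H2afy on days 4 to 6 and for H2afy2 on days 4 and 5.

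Across differentiation the members moved in different directions, and most of the movement was shared by all 5 series, as the plot of every library by day shows. From day 4 to day 7, averaged over the groups, 5 of 9 members changed, against 64.5% of all tested genes. Of these, 4 rose (H1f0, H2afy2, H2afy and H2afv; 35.7% of all genes) and 1 fell (H2afz; 28.8% of all genes), so the share of members called was close to that of the table. The median log2 fold change was 0.14 over the members and 0.08 over all genes, and the latter became -0.09 when libraries were centred on their median gene, a shift of the whole scale that bears on the smaller changes below. By successive days, 5 members rose from day 4 to 5 and 0 fell (38.7% of all genes called, 19.5% higher and 19.2% lower), 2 changed from day 5 to 6 (32.3% called), 1 higher (17% of all genes) and 1 lower (15.3%), and 6 changed from day 6 to 7 (27.5% called), 1 higher (16.9%) and 5 lower (10.6%). The direction of that last background depends on the scale: 2248 genes were higher and 1408 lower, but 1407 higher and 2278 lower after centring, and 1653 and 2077 with quantile normalization. The balance from day 4 to day 7 turned as well. There 4749 genes were higher and 3826 lower, but 4029 and 4704 after centring, and 4066 and 4427 with quantile normalization.

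The cells lost pluripotency transcripts over the same days. Of 6 pluripotency markers 5 fell from day 4 to day 7 (28.8% of all genes did), Esrrb most at -3.54 (SE 0.20, adjusted p = 1.9e-08), and their summed level went from a median of 2790 rpm (2390 to 2870) to 1040 rpm (651 to 1320), with Pou5f1 the most abundant on day 4. On day 4 the pluripotency markers were thus abundant, with Pou5f1 at a median of 1410 rpm. A list of 4 primed epiblast genes was abundant too, with a median sum of 1200 rpm (1090 to 1610). How far the cells had left the mESC state by then was not tested. Fewer cells of a type and less RNA per cell cannot be told apart in these bulk libraries, for the members as for the markers, and the part of the changing cell states in the members' changes was not tested.

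H2afx, the variant phosphorylated at DNA breaks, spanned only 1.20 log2 units over the 20 libraries, the narrowest range after the 1.17 of H3f3b. It stood at 6.42, 6.82, 6.57 and 6.50 log2 rpm in Nons on days 4 to 7, at 6.25 to 6.82 (median 6.60) in the Smarcc1 knockdown and at 6.31 to 7.45 (median 6.58) in the Smarca4 knockdown. The 3 groups overlapped almost fully, and only Smarca4 hairpin 6 on day 5 stood apart, as the highest value. The log2 fold change was 0.02 (95% interval -0.31 to 0.35) in the Smarcc1 knockdown and 0.07 (-0.26 to 0.39) in the Smarca4 knockdown, and 0.14 (SE 0.16, adjusted p = 0.46) from day 4 to day 7. From day 4 to 5 it was 0.39 (SE 0.16, adjusted p = 0.079, higher in 4 of 5 series), which passed the threshold without Smarcc1 hairpin 6 on day 5 (0.48, adjusted p = 0.030) or Smarca4 hairpin 4 on day 5 (0.50, adjusted p = 0.019) after centring on the median gene (0.45, adjusted p = 0.035), with quantile normalization and in the additive model (0.38 to 0.50, adjusted p = 0.035 to 0.048 over these 3). Centring also turned the sign of the H2afx values for both knockdowns and for day 7 against day 4, all close to 0. Of 4 tested genes of the FACT complex and the response to phosphorylated H2A.X, 3 fell from day 4 to day 7 (28.8% of all genes lower), among them the kinase Atm at -1.15 (SE 0.32, adjusted p = 0.0073). In the knockdowns 0 of these 4 were called by limma, with 0 and 1 at an unadjusted p below 0.05 for Smarcc1 and Smarca4.

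H2A.Z is made from a pair of genes whose products are nearly the same, H2afz and H2afv. Their promoters are shown because the pair went in opposite directions over differentiation. These are the 250 bases before the transcription start in RefSeq (GRCm38.p6), 5′ to 3′, with capitals for the letters CCAAT on either strand (CCAAT or ATTGG): chr3:137864237-137864486 (plus strand) for H2afz, and chr11:6444444-6444693 (minus strand) for H2afv. The promoter of H1f0, described further on, lies at chr15:79027962-79028211 (plus strand).
H2afz: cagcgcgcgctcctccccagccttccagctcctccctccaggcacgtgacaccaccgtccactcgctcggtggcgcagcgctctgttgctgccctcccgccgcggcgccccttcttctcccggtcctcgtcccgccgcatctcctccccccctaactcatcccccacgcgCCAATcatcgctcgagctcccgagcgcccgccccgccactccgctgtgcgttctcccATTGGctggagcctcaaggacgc
H2afv: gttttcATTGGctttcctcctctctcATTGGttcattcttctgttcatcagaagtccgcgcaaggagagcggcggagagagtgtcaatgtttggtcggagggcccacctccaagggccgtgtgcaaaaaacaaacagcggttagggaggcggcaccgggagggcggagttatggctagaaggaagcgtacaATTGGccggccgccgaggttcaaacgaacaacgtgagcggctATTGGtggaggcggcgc
H1f0: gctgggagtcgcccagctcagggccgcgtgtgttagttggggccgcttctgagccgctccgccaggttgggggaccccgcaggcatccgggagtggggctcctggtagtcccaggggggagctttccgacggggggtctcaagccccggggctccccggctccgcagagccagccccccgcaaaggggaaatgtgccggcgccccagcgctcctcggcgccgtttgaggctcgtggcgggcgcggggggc
CCAAT occurred 2 times for H2afz, 4 times for H2afv and 0 times for H1f0. Of the 8 members with a promoter in the table, 5 had it at least once and 3 (H2afv, H2afj and H3f3b) had it at least 3 times, while 33.8% of all 32851 promoters of this length had it at least once and 2.79% at least 3 times. The letters of an E2F site were in 0 of the 8 (1.3% of all promoters) and those of a TATA box in 1, H3f3b (12.4%). These counts depend on the start chosen. The windows of H2afy, H2afy2, H3f3a and H3f3b lie inside their GENCODE M21 genes, that of H3f3b (116024505 to 116024754) far from the gene's end at 116027962, and GENCODE starts H1f0 at 79028450, downstream of the start used here. This is a count of letters in a window, and no binding was measured.

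On day 4 H2afz was at 9.06 log2 rpm in Nons, 8.86 and 8.79 with Smarcc1 hairpins 6 and 7, and 8.84 and 9.05 with Smarca4 hairpins 4 and 6. On day 7 the same 5 series had 7.84, 7.77, 7.42, 7.73 and 7.45. The days did not overlap, and every series was lower on day 7. The log2 fold change was -1.27 (SE 0.20, adjusted p = 1.1e-04), made up of steps of 0.24 (adjusted p = 0.36), -0.70 (adjusted p = 0.019) and -0.81 (adjusted p = 0.012). Both of the later steps missed the threshold when either Smarca4 hairpin was left out (adjusted p = 0.075 to 0.13), whereas the change from day 4 to day 7 passed under all 32 alternatives.

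H2afv was at 6.40 log2 rpm in Nons on day 4, 6.13 and 6.09 in the Smarcc1 knockdown and 6.14 and 6.42 in the Smarca4 knockdown. By day 6 it had reached 7.78 in Nons, 7.90 and 7.03 with Smarcc1 hairpins 6 and 7, and 7.40 and 7.77 with Smarca4 hairpins 4 and 6, and on day 7 all 5 series were lower again, at 6.65 to 6.99. The rise to day 5 was 0.90 (SE 0.20, adjusted p = 0.0043, 5 of 5 series), the step to day 6 was 0.44 (adjusted p = 0.12, 5 of 5 series; 0.59 and 0.56, adjusted p = 0.029 and 0.048, without Smarcc1 hairpin 7 on day 6 or Smarca4 hairpin 6 on day 5) and the fall to day 7 was -0.79 (SE 0.20, adjusted p = 0.015, 5 of 5 series; -0.69, adjusted p = 0.11, without Smarca4 hairpin 6). The net change from day 4 to day 7 was 0.55 (SE 0.20, adjusted p = 0.029). It was the weakest of the 5 called: it became 0.38 (adjusted p = 0.18) after centring on the median gene, 0.46 (adjusted p = 0.12) without Smarca4 hairpin 4, and 0.50 to 0.56 (adjusted p = 0.051 to 0.071) without Smarcc1 hairpin 6 on day 4 or 7, Smarcc1 hairpin 7 on day 4 or Smarca4 hairpin 4 on day 4 or 7.

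**Figure D2:**
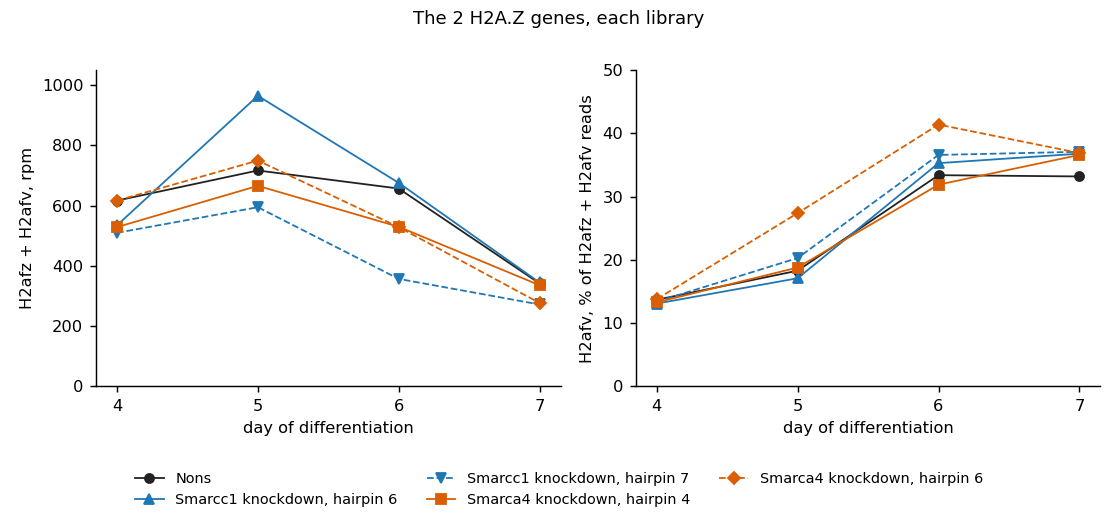
Left, summed rpm of H2afz and H2afv (y axis from 0) and right, the percentage of that sum from H2afv, both against day of differentiation, with 1 point per library and 1 line per series. The sum is highest on day 5 in all 5 series, and the H2afv share goes from 13.1 to 13.8% on day 4 to 33.2 to 37.1% on day 7.

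The balance within the pair shifted together in all series. H2afv made up 13.1 to 13.8% of the pair's reads on day 4 (median 13.4%), 17.1 to 27.4% on day 5, 31.9 to 41.4% on day 6 and 33.2 to 37.1% on day 7 (median 36.8%). These ranges do not overlap from day 4 through day 6, and days 6 and 7 do not differ beyond their spread. The summed level was 510 to 617 rpm on day 4 and 272 to 345 rpm on day 7, after 595 to 965 rpm on day 5. Neither gene was called in a knockdown: H2afz was at -0.22 (95% interval -0.62 to 0.18) in the Smarcc1 and -0.21 (-0.61 to 0.18) in the Smarca4 knockdown, and H2afv at -0.13 (-0.53 to 0.28) and -0.01 (-0.42 to 0.39). The hairpins against Smarcc1 disagreed most for these genes, since on day 6 hairpin 7 was lower than hairpin 6 by 0.95 log2 units for H2afz and 0.87 for H2afv. As many as 28.8% of the 75-base windows in H2afz transcripts also occur in other genes, mostly Tmcc1, so H2afz reads are uncertain where the counting could split them, whereas H2afv shares none.

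Of 11 tested entries for genes that exchange H2A.Z (10 symbols, Srcap being on 2 entries), 5 fell and 0 rose from day 4 to day 7, with 5 at an unadjusted p below 0.05 in limma (64.5% of all genes called, 28.8% lower; the difference was not tested). The largest fall was that of Ino80, an ATPase of a remodeller that acts on H2A.Z nucleosomes, at -1.93 (SE 0.24, adjusted p = 1.5e-05), and Anp32e, an H2A.Z chaperone, fell by 0.87 (SE 0.14, adjusted p = 1.6e-04). In the knockdowns 0 of the 11 were called by limma, with 1 at an unadjusted p below 0.05 in the Smarcc1 knockdown and 0 in the Smarca4 knockdown.

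In each knockdown 1 of 9 members was called, and with the culture series as a block 1 remained in the Smarcc1 and 0 in the Smarca4 knockdown. Both were higher: H2afy2 in the Smarcc1 knockdown, where 10.6% of all genes were called (7.54% higher and 3.08% lower), and H2afy in the Smarca4 knockdown, where 6.71% were called (4.75% higher and 1.96% lower). A count of 1 in 9 is near the background in both comparisons and is not particular to the variants. The median log2 fold change of the members was -0.10 in the Smarcc1 and -0.08 in the Smarca4 knockdown, against 0.06 over all genes in both. Both comparisons use the same 4 Nons libraries, so their values are given side by side and not as independent evidence.

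**Figure D3:**
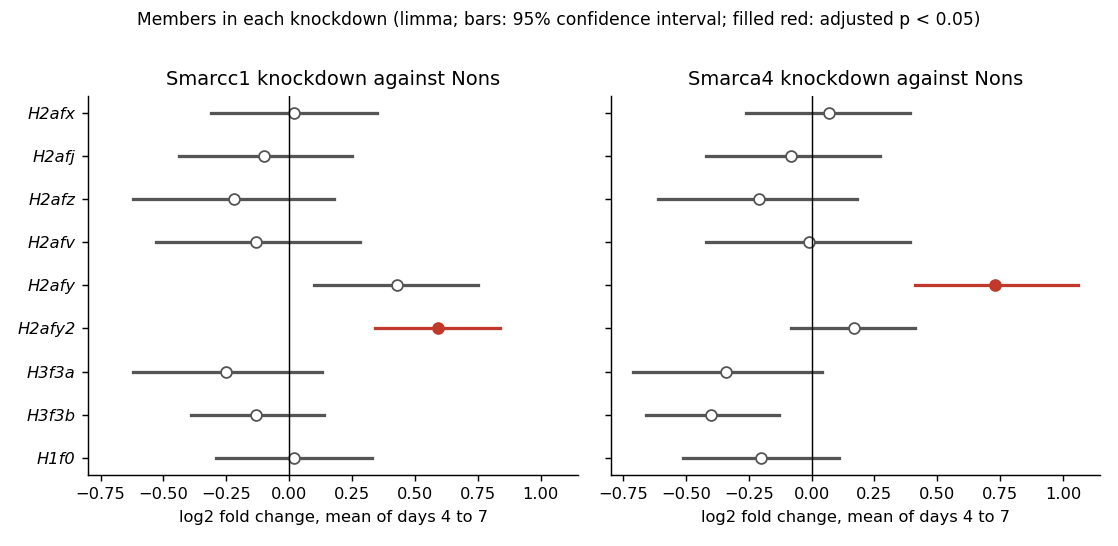
Log2 fold change against Nons, averaged over days 4 to 7 (x axis), of each member (y axis) in the Smarcc1 knockdown (left) and the Smarca4 knockdown (right), with bars for the 95% confidence interval from limma and filled red points for an adjusted p below 0.05. H2afy2 at 0.59 on the left and H2afy at 0.73 on the right are the filled points, and the other intervals reach 0 or carry adjusted p-values of 0.076 and above.

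H2afy encodes macroH2A1. In Nons it was at 5.18, 5.49, 5.76 and 6.52 log2 rpm on days 4 to 7. In the Smarca4 knockdown it was at 5.85 to 7.02 (median 6.53), and in the Smarcc1 knockdown at 5.63 to 6.49 (median 6.16). On days 4 to 6 all 12 knockdown libraries were above Nons of their day, while on day 7 the Smarcc1 hairpins were level with Nons and the Smarca4 hairpins were a little above it. The log2 fold change was 0.73 in the Smarca4 knockdown (SE 0.15, 95% interval 0.41 to 1.06, adjusted p = 0.011), with 8 of 8 libraries above Nons of their day by 0.20 to 1.53. It was 0.43 in the Smarcc1 knockdown (SE 0.15, adjusted p = 0.095), with 6 of 8 libraries above.

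The H2afy call in the Smarca4 knockdown depended on the error model. With the culture series as a block it was not called (adjusted p = 0.10), nor without hairpin 4 or hairpin 6 (log2 fold change 0.71 to 0.76, adjusted p = 0.060 to 0.088), nor without the Nons library of day 5 (0.58, adjusted p = 0.085). In the Smarcc1 knockdown H2afy passed the threshold (adjusted p = 0.037 to 0.048, log2 fold change 0.43 to 0.49) without Smarcc1 hairpin 6, Smarca4 hairpin 4 or Smarca4 hairpin 6 on day 5. The difference between the knockdowns was -0.31 (Smarcc1 minus Smarca4, SE 0.12, adjusted p = 0.22).

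H2afy2 encodes macroH2A2. In Nons it was at 3.64, 4.36, 4.71 and 5.02 log2 rpm on days 4 to 7. With Smarcc1 hairpin 6 it was at 4.38, 5.01, 5.17 and 5.57, and with hairpin 7 at 4.30, 5.16, 5.19 and 5.38. Both hairpins lay above Nons on each day and close to each other, by 0.02 to 0.19 log2 units, and the Smarca4 hairpins, at 4.02 to 5.23 (median 4.67), lay between Nons and the Smarcc1 hairpins on days 4 and 5 and around Nons on days 6 and 7. The log2 fold change was 0.59 in the Smarcc1 knockdown (SE 0.11, 95% interval 0.34 to 0.84, adjusted p = 0.0048), with 8 of 8 libraries above Nons of their day by 0.37 to 0.80. It passed the threshold under all 32 alternatives, with 0.53 to 0.63. In the Smarca4 knockdown it was 0.17 (SE 0.11, 95% interval -0.08 to 0.41, adjusted p = 0.46), with 6 of 8 libraries above.

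**Figure D4:**
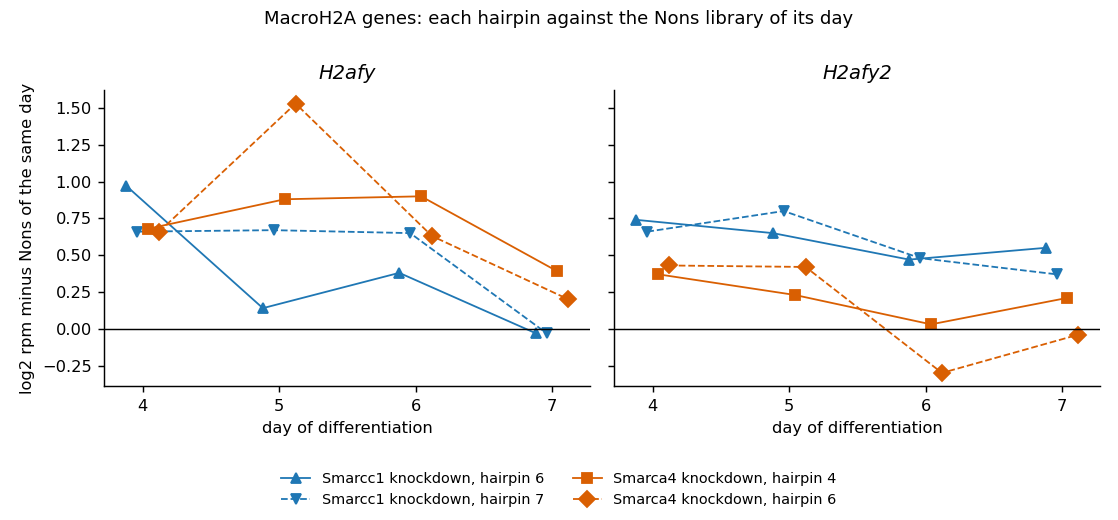
Log2 rpm of H2afy (left) and H2afy2 (right) in each knockdown library minus that of the Nons library of the same day (y axis) against day of differentiation (x axis, points set slightly apart), with 1 line per hairpin and the black line at 0 for Nons. For H2afy2 both Smarcc1 hairpins stay between 0.37 and 0.80 on all days, and for H2afy the Smarca4 hairpins reach 0.20 to 1.53.

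The plot of same-day differences shows smaller gaps on day 7 than on day 4 for both genes. That narrowing did not pass a test. The change from day 4 to day 7 differed from that in Nons by -0.85 for H2afy (SE 0.42, adjusted p = 0.71) and -0.24 for H2afy2 (SE 0.32, adjusted p = 1) in the Smarcc1 knockdown, and by -0.38 (SE 0.42) and -0.32 (SE 0.32) in the Smarca4 knockdown, both with adjusted p = 1. Over the members, 0 of 9 were called for this difference in either knockdown by limma, with 0 and 1 at an unadjusted p below 0.05, and 0 with limma-voom on whole reads. Over all genes 0.459% were called for the Smarcc1 (0.444% higher and 0.015% lower) and 0.0827% for the Smarca4 knockdown (0.0752% higher and 0.00752% lower).

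Set directly against each other, the knockdowns differed in 1 of 9 members, against 4.09% of all genes (2.55% higher and 1.54% lower in the Smarcc1 knockdown), and with the series block in 0 members and 105 of 13296 genes. H2afy2 was higher in the Smarcc1 than in the Smarca4 knockdown by 0.42 (SE 0.09, adjusted p = 0.023). On each day both Smarcc1 hairpins were above both Smarca4 hairpins. This call was lost with the series block (adjusted p = 0.17), without any of the 4 hairpins (0.38 to 0.46, adjusted p = 0.095 to 0.22), and without any of 6 single libraries, namely Smarcc1 hairpin 6 on day 4 or 7, Smarcc1 hairpin 7 on day 4, Smarca4 hairpin 4 on day 4 and Smarca4 hairpin 6 on day 4 or 7 (0.39 to 0.43, adjusted p = 0.063 to 0.084).

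With differentiation both macroH2A genes rose. H2afy2 was higher on day 7 than on day 4 by 1.19 (SE 0.12, adjusted p = 2.8e-06) and H2afy by 0.93 (SE 0.16, adjusted p = 2.5e-04), each in 5 of 5 series and under all 32 alternatives. For H2afy2 the steps were 0.70 to day 5 (adjusted p = 9.2e-04), 0.11 to day 6 (adjusted p = 0.54) and 0.38 to day 7 (adjusted p = 0.038), the last of which was lost without any of the 4 hairpins, without 10 of the 20 single libraries (0.32 to 0.42, adjusted p = 0.052 to 0.092) after centring on the median gene (0.18, adjusted p = 0.27), with quantile normalization (0.20, adjusted p = 0.22) and with no filter on low values (adjusted p = 0.080), 17 of 32 alternatives in all. The 10 libraries were Smarcc1 hairpin 6 on days 4, 6 and 7, Smarcc1 hairpin 7 on days 4 and 7, Smarca4 hairpin 4 on days 4 and 7, and Smarca4 hairpin 6 on days 4, 6 and 7. For H2afy no single step passed. They were 0.34 (adjusted p = 0.11; 0.43 and 0.45, adjusted p = 0.047 and 0.026, without Smarcc1 hairpin 6 or Smarca4 hairpin 4 on day 5, and 0.41, adjusted p = 0.043, after centring, and 0.48, adjusted p = 0.031, with quantile normalization), 0.16 (adjusted p = 0.48) and 0.42 (adjusted p = 0.068). The last of these passed with the series block (adjusted p = 0.045) and without Smarcc1 hairpin 6 or 7 on day 5, Smarcc1 hairpin 7 on day 6, or Smarca4 hairpin 4 or 6 on day 5 (adjusted p = 0.038 to 0.047). Over all alternatives the H2afy steps ran from 0.20 to 0.48, from 0.01 to 0.32 and from 0.22 to 0.47.

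The summed macroH2A level was 48.8 to 92.3 rpm on day 4, with Nons the lowest, and 124 to 158 rpm on day 7, again with Nons the lowest. H2afy2 gave 21.8 to 25.6% of it on day 4 and 23.0 to 34.6% on day 7, so these shares overlapped. The exons of H2afy overlap the antisense gene Gm47071 over 7.4% of their length and those of H2afy2 overlap Aifm2 over 10.7%. Such overlaps cover 10.2% for H2afx, 7.7% for H2afj and 7.9% for H1f0. Whether the counting used strand is not given in the sources used here, so reads in these stretches cannot be assigned.

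H2afj encodes a variant close to canonical H2A. In Nons it was at 5.73, 6.26, 6.00 and 5.29 log2 rpm on days 4 to 7, and over all libraries it ran from 4.89 (Smarcc1 hairpin 7, day 7) to 6.80 (Smarca4 hairpin 6, day 5). Day 5 was the highest day in every series and day 7 the lowest. The rise to day 5 was 0.85 (SE 0.17, adjusted p = 0.0023), the step to day 6 was -0.45 (adjusted p = 0.065) and the fall to day 7 was -0.76 (SE 0.17, adjusted p = 0.0083; -0.70, adjusted p = 0.078, without Smarca4 hairpin 6), each in 5 of 5 series. The step to day 6 passed with the series block (adjusted p = 0.030), in the additive model (-0.49, adjusted p = 0.011) and without Nons on day 5 or 6, Smarcc1 hairpin 6 on day 6 or Smarca4 hairpin 4 on day 5 (-0.55 to -0.54, adjusted p = 0.021 to 0.043). From day 4 to day 7 the value was -0.36 (SE 0.17, adjusted p = 0.088), which passed with the series block (adjusted p = 0.048), in the additive model (-0.34, adjusted p = 0.040), after centring on the median gene (-0.53, adjusted p = 0.037) and without Smarcc1 hairpin 6 (-0.46, adjusted p = 0.041). In the knockdowns H2afj was at -0.10 (95% interval -0.44 to 0.25) for Smarcc1 and -0.08 (-0.42 to 0.27) for Smarca4, and its direction there turned when some hairpin libraries were left out.

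H3.3 is made from H3f3a and H3f3b, which encode the same protein. H3f3b was at 9.05, 9.53, 9.20 and 9.25 log2 rpm in Nons on days 4 to 7, at 9.03, 9.14, 8.72 and 8.47 with Smarca4 hairpin 4, and at 8.97, 9.33, 8.82 and 8.40 with Smarca4 hairpin 6. In the Smarcc1 knockdown it was at 8.82 to 9.57. All 8 Smarca4 libraries lay below Nons of their day, at -0.85 to -0.02, and the gap was widest on day 7, where both Smarca4 hairpins lay below the other 3 series. The log2 fold change was -0.40 in the Smarca4 knockdown (SE 0.12, 95% interval -0.66 to -0.13) and did not pass the threshold (adjusted p = 0.076). It passed with quantile normalization (-0.35, adjusted p = 0.041) and without Nons on day 4 or Smarcc1 hairpin 6 or 7 on day 5 (-0.51 to -0.40, adjusted p = 0.033 to 0.045). Over all hairpins or libraries left out it ran from -0.51 to -0.26. In the Smarcc1 knockdown it was -0.13 (SE 0.12, adjusted p = 0.58), and the knockdowns differed by 0.27 (SE 0.10, adjusted p = 0.18). The change from day 4 to day 7 in the Smarca4 knockdown differed from that in Nons by -0.77 (SE 0.34), the only member at an unadjusted p below 0.05 for that difference, with an adjusted p of 1.

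H3f3a was at 8.13, 8.57, 8.72 and 8.07 log2 rpm in Nons on days 4 to 7, at 7.46 to 8.50 (median 8.03) in the Smarca4 knockdown and at 7.68 to 8.98 (median 7.88) in the Smarcc1 knockdown. It was below Nons of the same day in 8 of 8 Smarca4 and 7 of 8 Smarcc1 libraries. The log2 fold changes were -0.34 (SE 0.17, adjusted p = 0.31) and -0.25 (SE 0.17, adjusted p = 0.44), neither past the threshold. The Smarcc1 value ran from -0.47 to -0.03 over hairpins or libraries left out. On days 5 and 6 Smarcc1 hairpin 7 was lower than hairpin 6 by 0.81 log2 units.

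H3f3a rose by 0.58 from day 4 to day 5 (SE 0.19, adjusted p = 0.029, 5 of 5 series) and fell by 0.59 from day 6 to day 7 (SE 0.19, adjusted p = 0.036, 5 of 5 series), for a net -0.14 (adjusted p = 0.53). Both steps were fragile. The rise was lost without Smarcc1 hairpin 6 or either Smarca4 hairpin (adjusted p = 0.053 to 0.15) and without Smarcc1 hairpin 6 on day 4 or 5, Smarcc1 hairpin 7 on day 4 or Smarca4 hairpin 4 on day 4 (0.44 to 0.58, adjusted p = 0.055 to 0.072). The fall was lost without the same 3 hairpins (adjusted p = 0.058 to 0.24) and without 11 of the 20 single libraries (-0.61 to -0.45, adjusted p = 0.051 to 0.090). These were Nons on days 6 and 7, Smarcc1 hairpin 6 on days 4, 6 and 7, Smarcc1 hairpin 7 on days 4 and 7, Smarca4 hairpin 4 on day 4 and Smarca4 hairpin 6 on days 4, 6 and 7.

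H3f3b changed by 0.35 to day 5 (SE 0.13, adjusted p = 0.052, 5 of 5 series), a step that passed with the series block (adjusted p = 0.024), with quantile normalization (adjusted p = 0.013), without Smarcc1 hairpin 7 (0.44, adjusted p = 0.027) and without Smarcc1 hairpin 6 on day 6, Smarcc1 hairpin 7 on day 5 or 6, or Smarca4 hairpin 4 on day 5 (adjusted p = 0.011 to 0.043). Its step to day 6 was -0.24 (adjusted p = 0.19; -0.33, adjusted p = 0.048, without Smarcc1 hairpin 7 on day 5). H3f3b supplied most of the H3.3 reads in every library, 65.4 to 70.8% on day 4 and 61.8 to 69.5% on day 7, and these ranges overlap. The summed level was 727 to 811 rpm on day 4, 811 to 1260 rpm on day 5 and 513 to 877 rpm on day 7, when Nons was the highest library. Windows of 75 bases shared with other genes make up 23.1% of H3f3a transcripts, mostly with the antisense gene Gm17275 (15.4%) and less with H3f3c (5.2%) and H3f3a-ps2 (4.0%), and 3.4% of H3f3b transcripts, so H3f3a is the less certain of the pair. Antisense genes overlap 22.8% of the exons of H3f3a, the largest share of any member, and 0% of those of H3f3b.

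Of 7 tested H3.3 chaperone genes, 4 fell (Hira, Asf1a, Daxx and Atrx) and 1 rose (Ubn1) from day 4 to day 7 (64.5% of all genes called, 28.8% lower and 35.7% higher). Daxx, which with Atrx places H3.3 at telomeres and repeats, fell by 1.11 (SE 0.11, adjusted p = 2.3e-06), and Ubn1, a partner of Hira, rose by 0.78 (SE 0.23, adjusted p = 0.0089). In the knockdowns Daxx was the only chaperone of 7 called (10.6% and 6.71% of all genes), at 0.59 (SE 0.10, adjusted p = 0.0027) for Smarcc1 and 0.38 (SE 0.10, adjusted p = 0.048) for Smarca4. The Smarcc1 call was lost without Nons on day 7 (0.44, adjusted p = 0.055). The call for Smarca4 was lost in 27 of 32 alternatives, the series block (adjusted p = 0.25) and 16 of the 20 single libraries left out (0.30 to 0.40, adjusted p = 0.051 to 0.26) among them. The rise of Ubn1 was lost without Smarca4 hairpin 6 (0.66, adjusted p = 0.073).

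H1f0 changed most over differentiation among the members. On day 4 it was at 5.11 log2 rpm in Nons, 4.85 and 4.87 with Smarcc1 hairpins 6 and 7, and 5.11 and 5.31 with Smarca4 hairpins 4 and 6. On day 6 the same series had 7.49, 7.85, 7.17, 7.24 and 7.15, and on day 7 they had 6.62, 7.29, 6.87, 6.66 and 6.32. Every series rose to day 6 and was lower on day 7, yet no day 7 value came near the day 4 values. The step to day 5 was a 2.84-fold rise (95% interval 1.16 to 1.84 in log2 units, adjusted p = 2.5e-05), and the later steps were 0.83 (SE 0.16, adjusted p = 0.0017) and -0.67 (SE 0.16, adjusted p = 0.0098), for a net rise of 1.67 (SE 0.16, adjusted p = 1.2e-06), a 3.18-fold increase. The last step missed the threshold without Smarca4 hairpin 4 or 6 (-0.71 and -0.63, adjusted p = 0.054 to 0.10), and the net rise passed under all 32 alternatives.

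In the knockdowns H1f0 was at 0.02 (95% interval -0.29 to 0.33) for Smarcc1 and -0.20 (-0.51 to 0.11) for Smarca4. The Smarcc1 hairpins lay on either side of Nons on day 6, 0.68 log2 units apart, while both were above it on day 7. The change from day 4 to day 7 in the Smarcc1 knockdown exceeded that in Nons by 0.71 (SE 0.41, adjusted p = 0.83), which did not pass the threshold.

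The members were also set beside each other and beside the rest of the table, over 20 libraries that share days and culture series, so these correlations describe the libraries and carry no test. Among members the closest pairs were H2afv with H1f0 and H2afj with H3f3a, each with Pearson r = 0.85, and H3f3a with H3f3b (r = 0.78). H2afz went against the macroH2A genes, with r = -0.62 for H2afy and -0.57 for H2afy2, while its paralog H2afv had r = 0.07 with it. Of all tested genes the most like H2afz was Pcna, the sliding clamp of DNA replication (r = 0.996), followed by Ppih (0.989) and Mrps27 (0.986). H2afv was most like Dhrs7b (0.986), Rpl10a (0.984) and Rpl14 (0.983), and H1f0 most like Gatm (0.975), Cryz (0.968) and 2810408A11Rik (0.958). The macroH2A genes had 1700037H04Rik (0.96) and Nccrp1 (0.915) for H2afy, and Cish (0.917), Igfbp6 (0.889) and Gpr157 (0.883) for H2afy2. H2afj was followed most closely by Hddc2 (0.966), Mrto4 (0.963) and Nme2 (0.958), and H3f3a by Yeats4 (0.966), Psmd10 (0.96) and Cdc123 (0.959). The least matched were H3f3b, with Blmh (0.853), Prps1 (0.853) and Amacr (0.852), and H2afx, with Nt5dc2 (0.862), Th1l (0.849) and Olig1 (0.847).

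Pcna, the gene most like H2afz, was at a median of 8.37 log2 rpm on day 4 and 7.24 on day 7, and its change of -1.17 (SE 0.19, adjusted p = 1.6e-04) was close to that of H2afz in size. It belongs to a list of 10 S-phase genes that all fell from day 4 to day 7 (28.8% of all genes did), led by Rrm2 at -2.07 (SE 0.15, adjusted p = 1.4e-07). In the knockdowns 1 of 10 S-phase genes was called in each (10.6% of all genes for Smarcc1 and 6.71% for Smarca4), Mcm6 at 0.47 for Smarcc1 (SE 0.12, adjusted p = 0.027) and Cdc6 at 0.77 for Smarca4 (SE 0.12, adjusted p = 0.0025), while Pcna and H2afz were not called in either. Cdc6 also differed between the knockdowns, at -0.40 (SE 0.10, adjusted p = 0.04). The Mcm6 call was lost with the series block (adjusted p = 0.14), without either Smarcc1 hairpin (adjusted p = 0.063 and 0.17) and without Nons on day 6 or 7 or either Smarcc1 hairpin on day 4 or 7 (0.35 to 0.48, adjusted p = 0.057 to 0.24), and the Cdc6 call without Nons on day 7 (0.54, adjusted p = 0.067). Of 10 genes for the replication-coupled supply of histones, 7 fell (64.5% of all genes called, 28.8% lower), among them the histone chaperone Nasp at -1.87 (SE 0.21, adjusted p = 5.7e-06), and 1 rose, Lsm11, a part of the histone mRNA processing particle, at 1.43 (SE 0.13, adjusted p = 7.5e-07). In the knockdowns 0 of these 10 were called by limma, with 0 at an unadjusted p below 0.05 in each.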

How the data were processed

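The submitters' processing notes name HISAT2, bcl2fastq and mm10, the study's methods name trim_galore, mm10 and tophat or hisat2, and the authors deposited log2 rpm values from the SeqMonk RNA-seq quantitation pipeline. An entry with no read is listed at 0.9 of a read; on this step 100% of low values were whole reads within 0.01, which gave library totals of 6829596 to 27472885 reads. The annotation release and any use of strand in counting are not given in the sources used here. Of the symbols, 58 are on more than 1 entry, none of them a member.

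limma 3.58.1 in R 4.3.3 (trend) was fitted to the 20 libraries over the 13296 genes averaging 0 log2 rpm or more, with 12 means for group and day and 8 residual degrees of freedom; contrasts were averaged over days or groups. P-values were Benjamini-Hochberg adjusted over all genes, and below 0.05 a gene was called. limma-voom on whole reads called 1458, 899 and 8711 genes in the Smarcc1 knockdown, the Smarca4 knockdown and day 7 against day 4. Methods were tested on simulated data with independent errors, which held no correlation within a culture series.

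Named were all members, both targets, the 3 genes most correlated with each member (1 of them is not reported here) and, in each list, the largest called rise and fall in each knockdown and from day 4 to day 7; Anp32e, Hira, Asf1a, Atrx and Pou5f1 were named after their values were seen. The members and lists were chosen with earlier results of these data known. The culture series (a hairpin or Nons over 4 days) was the replicate block, with a correlation of 0.22. Hairpin numbers pair no cultures across groups. Levels per kilobase use the exon union of GENCODE M21. Alternatives were other filters, a pseudocount of 1 rpm, centring on the median gene, quantile normalization, voom, an additive model, the block, and each hairpin or library left out.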

Additional observations from a re-analysis of the deposited data

Results flagged for a closer look

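In 72 sets of libraries (each member and target by group, each member by day, and the totals by group), a library was looked for that lay far from the rest of its set, and 3 were found; by chance about 1 in 20 sets gives such a library. H2afx in the Smarca4 knockdown was highest with hairpin 6 on day 5, at 7.45 log2 rpm, while the other 7 libraries were at 6.31 to 6.78. Smarca4 itself was lowest with hairpin 6 on day 6, at 4.29 log2 rpm, while the other 7 Smarca4 knockdown libraries were at 5.18 to 5.97. The library of Smarca4 hairpin 4 on day 5 had 6829596 reads, and the other 7 of that knockdown had 15740712 to 23551166. The cause of these values was not tested.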

How the results depend on the processing

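Under 32 alternatives, 19 of them, single libraries left out, chosen after seeing the data, 1832 of 1972 log2 fold changes of the members kept their direction and their side of the threshold, 68 were weaker, 42 were stronger and 30 changed sign, with 0 of these 30 called. The counts of called genes, the 2 targets and the genes of the other lists are not in this tally. H2afy2 in the Smarcc1 knockdown and the changes of H1f0, H2afy2, H2afy and H2afz from day 4 to day 7 were called under all 32.

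When culture series was the replicate block, 0 members were called in the Smarca4 knockdown (1 before) and 0 between the knockdowns (1 before), and 1 in the Smarcc1 knockdown; over all genes 605, 258 and 105 were called in these comparisons in place of 1412, 892 and 544, and 175 and 20 for the change over days in place of 61 and 11. The hairpin numbers share no culture across groups. Quantile normalization gave 2 members in the Smarca4 knockdown. With a mean of at least 10 rpm required, 579, 324 and 241 genes were called, 3420 from day 4 to 5 in place of 5147, and 11 and 0 for the change over days. That change also called 1 gene for Smarca4 with no filter, 19 and 1 with 1 rpm added, 6 and 0 with quantile normalization, and 4 for Smarca4 with voom.

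Leaving out a hairpin or a library gave 1 to 2 members called in the Smarcc1 knockdown, 0 to 2 in the Smarca4 knockdown, 0 to 1 between the knockdowns, 0 to 7 from day 6 to 7, 1 to 3 from day 5 to 6, 4 to 8 from day 4 to 5 and 4 to 6 from day 4 to 7, and a Smarca4 target change of -1.99 to -1.59. Over all genes 635 to 1799 were called in the Smarcc1 knockdown, 277 to 1144 in the Smarca4 knockdown, 49 to 1067 between them, 3179 to 6155 from day 4 to 5, 1061 to 5203 from day 6 to 7, and 0 to 79 and 0 to 11 for the change over days. Without a hairpin or library, values in the Smarcc1 knockdown ran from -0.05 to 0.12 for H2afx, -0.15 to 0.20 for H1f0, -0.49 to 0.05 for H2afz, -0.34 to 0.08 for H2afv and -0.25 to 0.06 for H2afj; in the Smarca4 knockdown from -0.02 to 0.15 for H2afx, -0.15 to 0.12 for H2afv and -0.20 to 0.05 for H2afj; and for H2afy2 from day 5 to 6 from -0.01 to 0.19. After centring, H2afx was -0.04 and H1f0 -0.04 in the Smarcc1 knockdown, and H2afx -0.01 in the Smarca4 knockdown and -0.03 from day 4 to day 7; H3f3a from day 4 to day 7 was 0.02 with quantile normalization. The cause was not tested.

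Scaling moved the share of higher among called genes: with quantile normalization from 71.0 to 53.7% in the Smarcc1 and from 70.7 to 52.9% in the Smarca4 knockdown (60.5% centred), and from day 6 to 7 from 61.5 to 44.3% (38.2% centred). Centring moved the median gene from 0.15 to -0.05 from day 6 to 7. For the change over days in the Smarcc1 knockdown the share of higher went from 96.7 to 83.3% with quantile normalization.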

Other observations

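The other histone genes gave a mixed picture. H1fx, the gene for another linker histone, was at a median of 2.61 log2 rpm on day 4 and 4.76 on day 7 and rose by 2.22 (SE 0.27, adjusted p = 1.2e-05), more than H1f0; it was 1 of only 2 tested genes among 8 other variant histones found in the table. The paper's libraries were made with the TruSeq RNA sample preparation kit. How fully they hold histone transcripts that lack a poly(A) tail was not tested, so the next counts describe only captured transcripts. Of 66 replication-dependent histone genes 11 passed the filter on low values. Of these 5 rose from day 4 to day 7 and 0 fell, with 35.7% of all genes higher (limma; 7 at an unadjusted p below 0.05 in either direction), led by Hist3h2ba at 2.35 (SE 0.22, adjusted p = 1.4e-06), whose median went from 0.604 to 3.24 rpm (1.40 with 1 rpm added). The filter takes the mean over all days, so a gene low on day 4, such as Hist3h2ba, was tested only because it was higher later, and the count of rises rests partly on that choice. Over the same days all 10 S-phase genes fell, whereas of 10 mitosis genes (64.5% of all genes called) 1 rose, Ccnb2 at 0.99 (SE 0.12, adjusted p = 1.2e-05), and 1 fell, Cdc20 at -0.31 (SE 0.13, adjusted p = 0.045; lost in 13 of 32 alternatives, with adjusted p = 0.051 to 0.30).

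Genes of some marker lists, though not of the mesendoderm or trophoblast lists, were called from day 4 to day 7 and in the knockdowns. From day 4 to day 7 the primed epiblast list went from a median sum of 1200 to 377 rpm (2 of 4 lower, against 28.8% of all genes, Dnmt3b at -2.41). The neural list went from 38.5 to 97.3 rpm, mostly through Nes (2.58 higher, median 14.8 to 74 rpm). Of its 4 genes 1 was higher and 1 lower (Neurod1 at -2.81), against 35.7 and 28.8% of all genes. Their median log2 fold change was -0.42. The fibroblast list went from 9.56 to 51.3 rpm (Col1a2 5.67 higher, 3.93 with 1 rpm added; Dcn at -1.65, -0.65 with 1 rpm added, lost without either Smarca4 hairpin at -1.80 and -1.50, adjusted p = 0.058 and 0.10, and at -2.22 to -1.08 over the leave-outs), the endoderm list from 1.58 to 5.93 rpm (Gata4 2.57 higher, 1.56 with 1 rpm added), and the mesendoderm and trophoblast lists were at 7.89 to 11.7 and 15.1 to 18.7 rpm on day 4 and at 4.8 to 13.8 and 16.4 to 24.7 rpm on day 7. Col1a2 and Gata4 were below the filter on day 4, at medians of -1.78 and -0.74 log2 rpm, and were tested because of their later levels. Of 6 pluripotency genes, 4 were higher in the Smarcc1 and 3 in the Smarca4 knockdown (7.54 and 4.75% of all genes higher), led by Esrrb at 1.84 (SE 0.19, adjusted p = 6.9e-05) and 1.24 (SE 0.19, adjusted p = 0.0018), while 2 of 4 primed epiblast genes were lower in each (3.08 and 1.96% of all genes lower), led by Fgf5 at -1.31 (adjusted p = 0.0045) and -1.10 (adjusted p = 0.019; 0.082 with the series block). Other lineage markers moved as far. Of 4 neural genes Sox1 was higher in both knockdowns, by 2.40 (SE 0.33, adjusted p = 5.5e-04) and 2.33 (SE 0.33, adjusted p = 0.0012), called under all 31 alternatives fitted, and Neurod1 was lower in the Smarca4 knockdown at -1.15 (adjusted p = 0.025; lost in 8 of 31, at -0.42 with adjusted p = 0.63 without Nons on day 7, and 0.18 with the series block). Of 4 fibroblast genes Dcn was lower in both, at -2.95 (SE 0.49, adjusted p = 0.0019) and -2.37 (SE 0.49, adjusted p = 0.013; 0.096 with the series block), or -1.67 and -1.51 with 1 rpm added, and Col1a1 was higher in the Smarcc1 knockdown by 1.32 (adjusted p = 0.042; lost in 21 of 32). Median Dcn levels were below the filter on days 5 to 7, at -0.19, -0.17 and -0.99 log2 rpm. Dcn was tested because of its higher level in Nons, so its lower values in the knockdowns rest partly on that choice. Gata4, the only endoderm gene tested, was higher by 1.14 (adjusted p = 0.0065; 0.052 with the series block) and 0.89 (adjusted p = 0.038; lost in 21 of 31), or 0.78 and 0.54 with 1 rpm added. Of 1 mesendoderm and 2 trophoblast genes, with Eomes in both lists, 0 were called in either knockdown by limma. At an unadjusted p below 0.05 there were 0 for Smarcc1, and Eomes alone for Smarca4. The part of these shifts in the macroH2A values was not tested.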
